A study of Saccharomyces cerevisiae with 12 samples.

Results

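The subject here is the effect of losing Pat1 in yeast cells whose wall was being disturbed, taken as the signal on the 3 arrays of a pat1 mutant exposed to Congo Red minus that on the 3 arrays of wild type cells exposed to the same dose. These 6 arrays belong to a series of 12, and the comparison was made over all 5449 genes that had 1 symbol in the array annotation. Both strains were Saccharomyces cerevisiae BY4741, a haploid laboratory strain with mutations in HIS3, LEU2, MET17 and URA3, and all 4 groups of the series share this background. Cells in exponential growth received 30 µg/ml Congo Red for 2 h (the wild type and pat1 groups compared here) or grew for the same time without drug (the other wild type and pat1 groups). The series text gives 3 biological samples per strain, each used for 1 array with and 1 array without drug. The labels name neither the kind of pat1 allele nor whether the mutant is 1 clone. Each value is a log2 signal of an Affymetrix yeast array, so a difference of 1 is a 2-fold change. The number of arrays limits the precision, and in RNA from whole cultures fewer cells expressing a gene and less RNA per cell cannot be told apart.

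Pat1 is a conserved RNA-binding protein that joins the Lsm ring on mRNAs whose poly(A) tail has been shortened, and it promotes removal of the cap and represses translation. Decapped mRNA is then degraded by the exonuclease Xrn1. Congo Red is an azo dye that attaches to the chitin of the wall and weakens it, and yeast answers the damage through the cell wall integrity pathway, in which sensors act through Rho1 and Pkc1 on the mitogen-activated kinase Slt2 and the transcription factor Rlm1.

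PAT1 itself gave 10.73, 10.63 and 10.61 on the wild type arrays and 3.94, 2.95 and 3.21 on the pat1 arrays, all with Congo Red. The strains did not overlap, and the mutant arrays lay near the bottom of the range of the table, which ran from 2.33 to 14.32. Arrays of 1 group correlated at 0.982 or more across genes in the groups with drug. A pair of arrays stood apart. Wild type array 2 with Congo Red gave a URA3 signal of 7.71, against 2.94 to 3.27 on the other 5 arrays with drug, in a strain background mutated in this gene. Of the arrays without drug, pat1 array 1 gave 6.76, and it enters the values without drug and the shared estimate of the spread. On pat1 array 3 with Congo Red the 38 general stress genes had a median 0.958 above the wild type mean, against 0.017 and 0.041 on pat1 arrays 1 and 2, and the median over all genes of the array was 9.70 where the other 5 lay between 9.53 and 9.60. Results are therefore also given without these arrays, and their part in the results was not tested in any other way.

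With Congo Red present, 351 of the 5449 genes (6.44%) differed between pat1 and wild type at a limma adjusted p under 0.05. Of these, 232 (4.26%) were higher and 119 (2.18%) were lower in pat1. Genes said to rise or fall are higher or lower in pat1 than in wild type, which is not a response to the dye. Most differences were small, with a median log2 difference of 0.63 among the genes that rose and -0.63 among those that fell apart from PAT1. Only 47 genes (0.863%) changed at least 2-fold, 25 of them higher and 22 lower. In all 351 the values of the 3 pat1 arrays lay wholly above or wholly below those of the 3 wild type arrays. Such groups without overlap occurred in 1618 genes (29.7%) in all, and 1292 genes had an unadjusted p under 0.05.

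The median difference over all genes was 0.044, and the balance of directions depended on how the arrays were scaled. As deposited, 66.1% of the called genes were higher in pat1. With each array centred on its median the count was 183 higher and 173 lower (51.4% higher), with quantile normalization 181 and 165 (52.3%), and with cyclic loess normalization 184 and 203 (47.5%). The count also rested on single arrays. It was 145, 152 and 92 without wild type arrays 1, 2 and 3 in turn, and 259, 199 and 125 without pat1 arrays 1, 2 and 3. The arrays of 1 biological sample deviated together, and with the sample as a random block 290 genes passed (197 higher, 93 lower), 264 of them among the 351. Without both arrays that stood apart, 35 genes passed, 21 higher and 14 lower. All 351 genes kept their sign under each of the 19 alternative settings in which they were measured, and 32 of them (21 higher, 11 lower) were called in each of those settings.

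**Figure D1:**
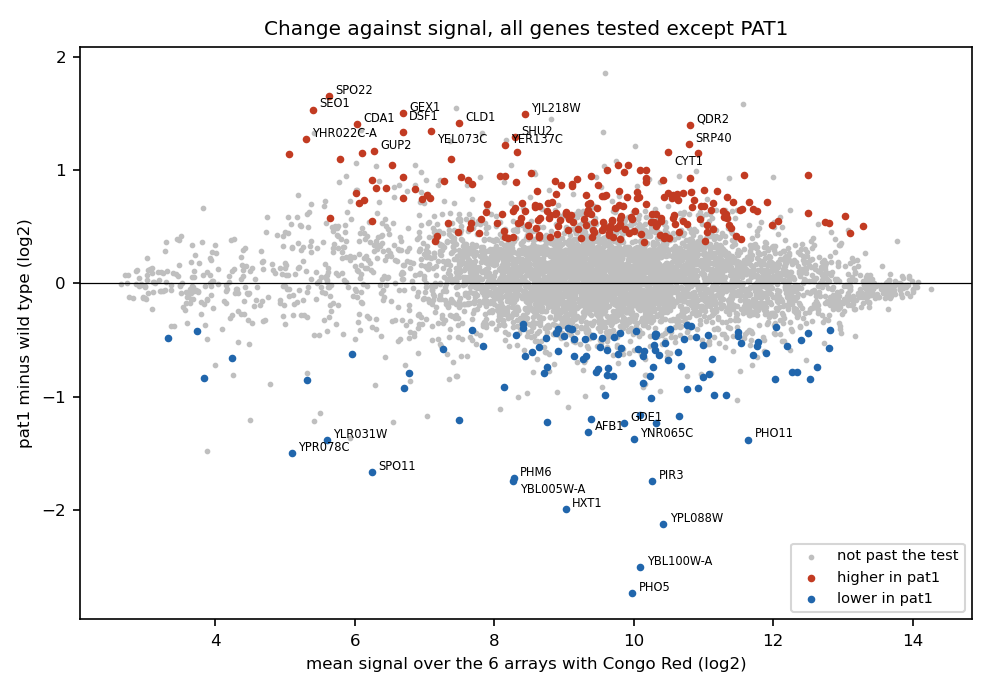
Difference between pat1 and wild type with Congo Red (vertical axis, log2) against mean signal over the 6 arrays (horizontal axis, log2), 1 point per gene, with genes past the limma test in red (232 higher) and blue (119 lower, PAT1 not drawn). Called genes occurred over the whole range of signal, and PHO5 had the lowest value drawn.

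The 15 largest increases in pat1 under Congo Red belonged to genes of varied roles, of which 4 are known here only by systematic names. SPO22, a meiosis-specific protein of chromosome synapsis, gave 4.70, 4.67 and 5.04 in wild type and 6.56, 5.87 and 6.94 in pat1, a difference of 1.66 ± 0.26 (SE, n = 3 arrays per group, adjusted p = 0.00626). SEO1, a putative permease, gave 4.69, 4.66 and 4.55 against 6.02, 5.90 and 6.58 (1.53 ± 0.26, adjusted p = 0.00731). GEX1, a proton and glutathione exchanger, gave 5.91, 6.04 and 5.87 against 7.67, 7.33 and 7.33 (1.5 ± 0.12, adjusted p = 0.000135). In these 3 genes the lowest pat1 array was clearly above the highest wild type array, and the signals were in the lower part of the range. CLD1, the mitochondrial phospholipase that remodels cardiolipin, gave 6.85, 6.64 and 6.88 in wild type and 7.89, 8.28 and 8.42 in pat1 (1.41 ± 0.14, adjusted p = 0.000593). QDR2, a multidrug transporter of the plasma membrane, gave 10.13, 10.43 and 9.78 against 11.62, 11.46 and 11.45 (1.40 ± 0.20, adjusted p = 0.00358). CDA1, a chitin deacetylase of the spore wall, gave 5.13, 5.70 and 5.18 against 6.70, 6.35 and 7.17 (1.40 ± 0.31, adjusted p = 0.0261). The mutant arrays were closely spaced for QDR2 (SD 0.098) and more spread for CDA1 (SD 0.409), while the wild type arrays varied alike (SD 0.321 and 0.318).

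The other genes among the 15 with the largest increases had differences between 1.16 and 1.49. They were the recombination repair gene SHU2 (1.29 ± 0.19), the nucleolar protein gene SRP40 (1.23 ± 0.21), GUP2 (1.17 ± 0.22), the cytochrome c1 gene CYT1 (1.16 ± 0.27), DSF1 (1.33 ± 0.35), and YJL218W (1.49 ± 0.17), YEL073C (1.35 ± 0.17), YHR022C-A (1.27 ± 0.21) and YER137C (1.22 ± 0.18), which are known here only by systematic names. GEX1 and DSF1 are read by probe sets that may also bind related transcripts. Of the 15, GEX1, YJL218W, CLD1, QDR2, YEL073C and YER137C were called under every setting that measured them. With single arrays left out, CDA1 was called only without wild type array 2 or pat1 array 2 (highest adjusted p = 0.0967, without pat1 array 3). CYT1 was called only without wild type array 2 or pat1 array 1 (highest adjusted p = 0.124, without wild type array 3), and DSF1 lost its call whichever array was left out (highest adjusted p = 0.132, without wild type array 1).

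Besides PAT1, which differed by -7.29 ± 0.25, the 15 largest decreases included the phosphate genes PHO5, PHM6 and PHO11, the wall gene PIR3 and the hexose transporter gene HXT1, beside genes of other or unannotated roles. PHO5, the secreted acid phosphatase, gave 10.99, 11.48 and 11.58 in wild type and 9.62, 7.99 and 8.24 in pat1. This was a 6.66-fold lower signal (-2.74 ± 0.51, adjusted p = 0.0122), and pat1 array 1 was less reduced than the other mutant arrays. YBL100W-A gave 11.73, 11.29 and 11.02 against 9.01, 8.73 and 8.80, which is 5.67-fold lower (-2.50 ± 0.21, adjusted p = 0.000135). YBL005W-A gave 9.46, 9.0 and 8.98 against 6.76, 7.42 and 8.03 (-1.74 ± 0.32, adjusted p = 0.0118). The probe sets of YBL100W-A and YBL005W-A may bind related transcripts, so neither value is tied to 1 locus.

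YPL088W, known here only by its systematic name, gave 11.23, 11.41 and 11.82 in wild type and 10.06, 9.36 and 8.67 in pat1, 4.37-fold lower (-2.13 ± 0.29, adjusted p = 0.00311). It was the 1 gene past the test among 6 measured genes listed as aryl alcohol dehydrogenases, beside 2.18% lower among all genes. HXT1, the low-affinity glucose transporter, gave 9.99, 9.77 and 10.31 against 8.71, 7.52 and 7.86 (-1.99 ± 0.37, adjusted p = 0.0125). SPO11, the endonuclease that breaks DNA to start meiotic recombination, gave 6.83, 6.80 and 7.62 against 5.95, 4.99 and 5.31 (-1.67 ± 0.29, adjusted p = 0.00929). The groups of these genes did not overlap, and pat1 array 1 was the mutant array nearest to wild type in all 3. The rest of the 15 largest decreases were PIR3, PHM6 and PHO11, described below, AFB1, a barrier protein against a-factor (-1.32 ± 0.17), GDE1, a glycerophosphocholine phosphodiesterase (-1.23 ± 0.17), and YPR078C (-1.50 ± 0.28), YLR031W (-1.39 ± 0.27) and YNR065C (-1.38 ± 0.31). PAT1, YBL100W-A, YPL088W, YBL005W-A, AFB1 and GDE1 were called under every setting that measured them. Without wild type array 3 the calls of PHO5 (adjusted p = 0.054), HXT1 (0.0574), YLR031W (0.0592), YPR078C (0.0523) and YNR065C (0.11) were lost. Those of PHO5 and HXT1 were also lost without pat1 array 3 (0.0541 and 0.0538), and YNR065C was called only when pat1 array 1 was left out.

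The same strain difference was measured without drug, where 351 genes (6.44%) were also called, 191 higher and 160 lower. The comparisons with and without drug do not share arrays, but they share the biological samples, so their values are set side by side only. Among the 15 genes that rose most with Congo Red, all 15 were also higher in pat1 without drug and 13 were called there. SPO22 differed by 1.68 without drug, CLD1 by 1.78, QDR2 by 1.61 and CDA1 by 1.58. SHU2 (0.63, adjusted p = 0.067) and GUP2 (0.31, adjusted p = 0.42) were not called. Among the 15 largest decreases 13 were also lower without drug and 9 were called. PHO5 differed by -3.25 without drug, YBL100W-A by -2.64, HXT1 by -2.12 and YBL005W-A by -2.09. YPL088W (-0.02) and PIR3 (0.86), by contrast, had no call without drug (adjusted p = 0.97 and 0.12), and YNR065C (0.07), SPO11 (-0.48), YPR078C (-0.39) and YLR031W (-0.82) had none either.

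**Figure D2:**
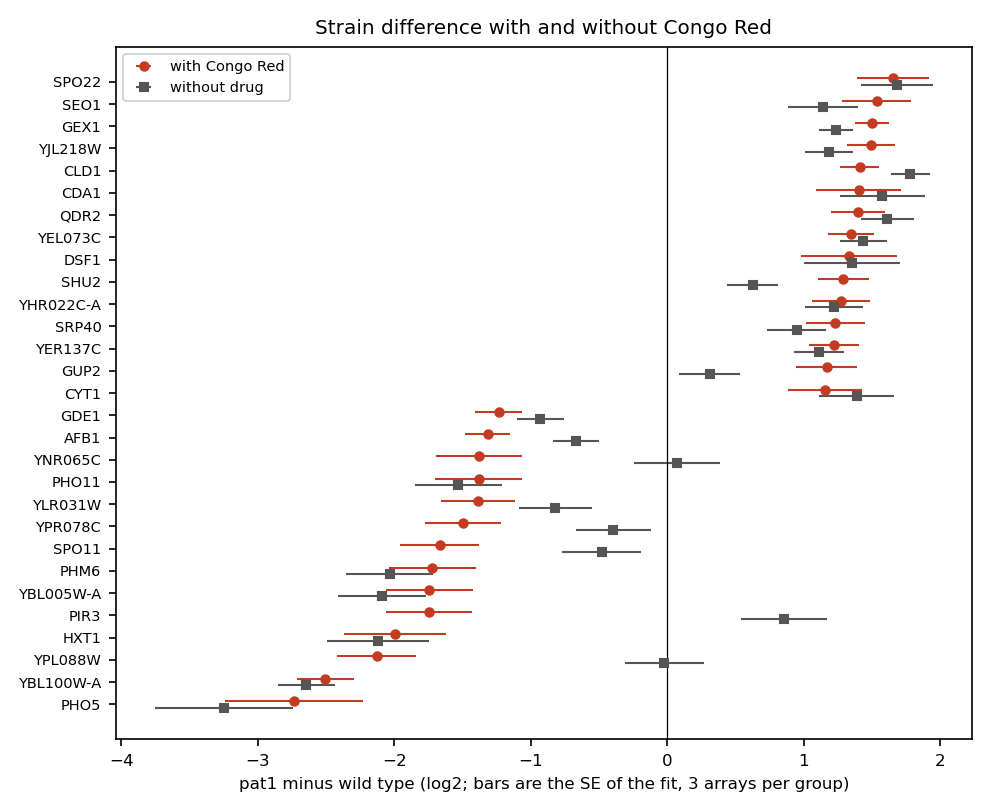
Difference between pat1 and wild type (horizontal axis, log2) with Congo Red (circles) and without drug (squares) for the genes with the 15 largest changes in each direction with drug, PAT1 left out, with bars for the SE of the limma fit (3 arrays per group). The pairs of points lie close together for most genes, and PIR3 and YPL088W lie farthest apart.

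Whether the strain difference itself changed with Congo Red was tested gene by gene as the difference between both contrasts. No gene passed (0%), the lowest adjusted p was 0.429, and 130 genes had an unadjusted p under 0.05. PIR3 had the value -2.60 ± 0.45 and YPL088W -2.11 ± 0.41 (adjusted p = 0.429 and 0.485), followed in the cell wall targets by BAG7 (-2.08 ± 0.56). PHO89, a sodium and phosphate cotransporter, had 1.08 ± 0.20 (adjusted p = 0.429). The design pairs the arrays of 1 biological sample, and with that sample as a fixed replicate block 3 genes passed, PRM10 (-1.0), YJL107C (-1.26) and YNR065C (-1.45). With the sample as a random block 11 genes passed, namely BAG7, FLC1, GSC2, HAL1, MCH5, PIR3, PRB1, YNR065C, YPK2 and YPL088W with values below 0 and PHO89 above 0. Without pat1 array 1 with Congo Red, KDX1, PIR3 and YPL088W passed, and without pat1 array 1 without drug, PHO89 did. A gene called with drug and not without it is therefore not shown to respond differently. The genes named here passed only in alternative fits, without adjustment for the number of fits. The fixed and the random block shared only YNR065C.

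Most genes of the decapping machinery did not pass the test, as was so for all genes, of which 6.44% passed (4.26% higher and 2.18% lower). Of 18 measured genes for Pat1, the Lsm ring and decapping factors, PAT1 and XRN1 were lower, LSM3 was higher and 15 did not pass, with a median of 0.006 that became -0.046 with centred arrays. LSM3, a subunit of both the cytoplasmic and the nuclear Lsm ring, gave 10.40, 10.49 and 10.16 in wild type and 11.62, 11.35 and 11.55 in pat1, a 2.23-fold rise (1.15 ± 0.13, adjusted p = 0.000889), and was called under every setting. XRN1, the exonuclease that degrades decapped mRNA, gave 11.20, 11.01 and 11.16 against 10.63, 10.68 and 10.64 (-0.47 ± 0.10, adjusted p = 0.025). Its call was lost when any array but wild type array 2 was left out (highest adjusted p = 0.0879, without wild type array 3). The Lsm ring gene LSM1 had 0.30 and LSM5 0.21, while the decapping enzyme gene DCP2 had -0.30, and EDC1 and DCS2, the one an activator of decapping and the other related to the scavenger decapping enzyme, had 0.67 and 0.69. None of these 5 passed.

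Among all genes 2.18% fell and 4.26% rose. Of 13 genes of deadenylation CDC39, the scaffold subunit of the Ccr4-Not complex, fell (-0.55 ± 0.10, adjusted p = 0.0131), and no other passed. Without wild type array 1 or 3 its adjusted p was 0.0546 and 0.0523. No gene of 17 for the exosome and Ski complex passed (median 0.265, highest MTR3 at 0.64), nor any of 17 mRNA-binding regulators. On either side of PAT1 on the chromosome the annotated neighbours EGO2 (-0.49), FUB1 (0.42), PTC6 (0.47, adjusted p = 0.0613) and SRB8 (-0.24) did not pass.

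Several targets of the cell wall integrity pathway fell in the mutant under Congo Red. Of 24 measured targets 8 fell, none rose and 16 did not pass, against 2.18% lower among all genes. The median of the 24 was -0.597, against 0.044 over all genes, and 23 of the 24 values were below 0. Without drug the same 24 genes had a median of -0.043 and no member was lower. In the main fit no target passed the test of the difference between contrasts. PIR3, a structural protein of the wall, gave 10.73, 11.11 and 11.59 in wild type and 10.13, 8.94 and 9.13 in pat1, a 3.35-fold lower signal (-1.74 ± 0.31, adjusted p = 0.011). Its mean without drug was 6.55 in wild type and 7.4 in pat1, so both strains had far more PIR3 signal with the dye than without it. KDX1, a protein related to the kinase Slt2, gave 10.76, 10.80 and 11.24 against 10.41, 9.42 and 9.27 (-1.23 ± 0.25, adjusted p = 0.019), and its mean without drug was 6.68 in both strains. YPS3, a yapsin protease of the plasma membrane and wall, gave 10.38, 10.60 and 11.04 against 10.08, 9.29 and 9.18 (-1.16 ± 0.27, adjusted p = 0.0323), and its mean without drug was 8.10 in both. In all 3 genes pat1 array 1 was the mutant array nearest to wild type, and wild type array 3 was the highest.

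The other targets that fell were smaller changes at high signal. GFA1, which makes glucosamine phosphate for chitin, gave 12.70, 12.64 and 12.84 in wild type and 12.22, 11.89 and 11.71 in pat1 (-0.79 ± 0.14, adjusted p = 0.0117). PTP2, a tyrosine phosphatase that acts on mitogen-activated kinases, gave 11.10, 10.84 and 11.18 against 10.50, 10.38 and 10.03 (-0.73 ± 0.13, adjusted p = 0.0104). SRL3 (-0.83 ± 0.19), the kinase gene YPK2 (-0.64 ± 0.15) and the chitin synthase gene CHS3 (-0.55 ± 0.14) completed the 8. With the biological sample as a random block SRL3 and CHS3 did not pass (adjusted p = 0.0738 and 0.0725), and 7 of the 24 targets did. Values for the members that did not pass, named after they were seen, include BAG7 (-1.37, adjusted p = 0.0613), PRM5 (-0.77, 0.0517), SLT2 (-0.72, 0.0828), MTL1 (-0.69, 0.237), PST1 (-0.65, 0.122) and RLM1 (-0.35, 0.215). The wall protein genes PIR1 (-0.22), SED1 (-0.13), HSP150 (-0.10), CIS3 (-0.05) and SVS1 (-0.02) stood close to 0. GSC2, a catalytic subunit of glucan synthase, was the only target with a value above 0 (0.22, adjusted p = 0.546). Without drug GSC2 was higher in pat1 by 1.54 ± 0.20 (adjusted p = 0.0027), with means of 9.5 in wild type and 11.04 in pat1, and with Congo Red its means were 11.77 and 11.99.

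**Figure D3:**
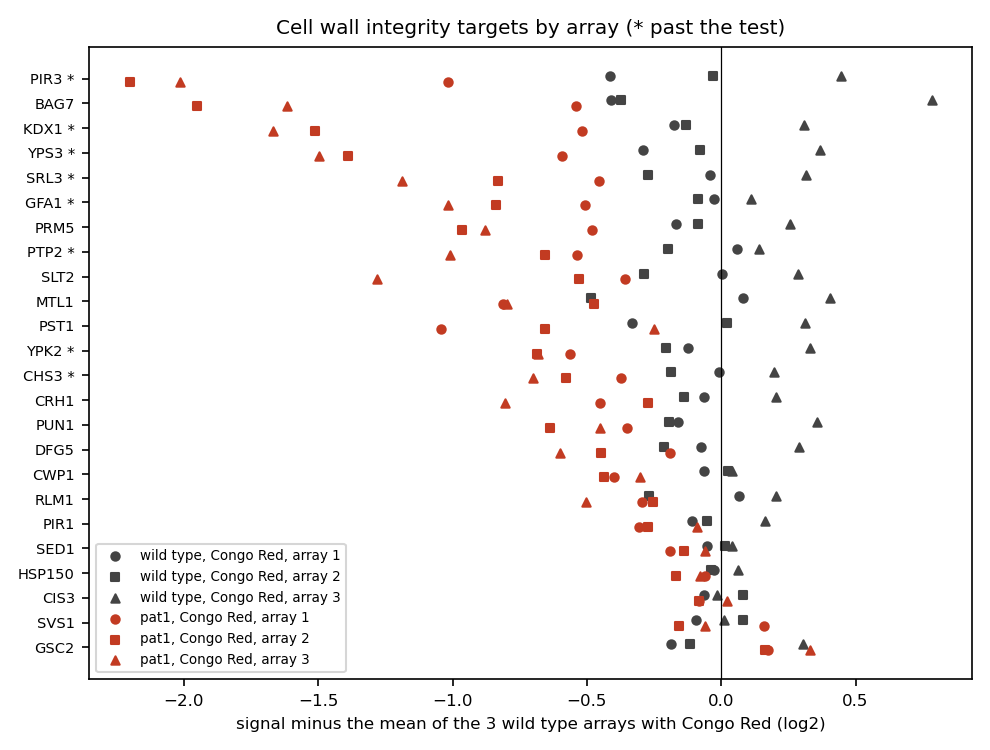
Signal of the 24 cell wall integrity targets on each array with Congo Red, minus the mean of the 3 wild type arrays (horizontal axis, log2), with wild type in grey and pat1 in red and an asterisk at the 8 genes past the limma test. The red points lie to the left for most genes, pat1 array 1 (circles) is the nearest to wild type among PIR3, KDX1 and YPS3, and wild type array 3 (triangles) lies farthest to the right in most rows.

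The number of targets called depended on single arrays although their median did not. It was 4, 6 and 0 without wild type arrays 1, 2 and 3, and 9, 3 and 3 without pat1 arrays 1, 2 and 3, while the median stayed between -0.642 and -0.465. Without both arrays that stood apart it was 1, with a median of -0.591. Wild type array 3 was the highest of its group, with a median over the targets 0.269 above the wild type mean, against -0.07 and -0.124 on wild type arrays 1 and 2. All 3 pat1 arrays were below the wild type mean, at -0.425, -0.553 and -0.692.

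Among 27 components of the cell wall integrity pathway 3 fell, none rose and 24 did not pass, against 2.18% lower among all genes, with a median of -0.233. They were KDX1 and PTP2, already counted as targets, and MSG5, a phosphatase acting on Slt2 (-0.74 ± 0.18, adjusted p = 0.035), which gave 10.52, 10.60 and 10.82 in wild type and 10.06, 9.78 and 9.86 in pat1. No component was called without wild type array 3. Of 35 genes of glucan and chitin synthesis 5 fell and 1 rose (median -0.116), again beside 2.18% and 4.26% of all genes. EXG2, an exoglucanase, fell by 1.01 (SE 0.17, adjusted p = 0.00714), with 10.59, 10.58 and 11.11 in wild type and 9.91, 9.61 and 9.71 in pat1. KRE5, an endoplasmic reticulum protein needed for glucan synthesis (-0.58 ± 0.13), was lower, and FKS3, related to glucan synthase (0.71 ± 0.17), was higher. GFA1 and CHS3 are shared with the targets. The call of EXG2 held with each array left out in turn, and those of KRE5 and FKS3 did not (highest adjusted p = 0.105 without wild type array 3 and 0.106 without wild type array 2). Of 27 wall mannoproteins PIR3 and YPS3 fell, and the flocculin gene FLO9 (0.68 ± 0.10) and TIR2 (0.66 ± 0.16) rose, beside the same 2.18% and 4.26% of all genes. TIR2 lost its call whichever array was left out (highest adjusted p = 0.107). FLO9 is read by a probe set that may bind related transcripts. None of 12 calcineurin targets passed, the largest value being that of the yapsin gene YPS1 (-0.46, adjusted p = 0.0534).

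The phosphate regulon, induced by the transcription factor Pho4 when phosphate is scarce, held several genes that fell in pat1. Of 14 measured genes 7 fell, 1 rose and 6 did not pass, against 2.18% lower and 4.26% higher among all genes, with a median of -0.524, and without drug 9 fell and 1 rose, with a median of -0.606. Apart from PHO5, the acid phosphatase gene PHO11 gave 12.21, 12.41 and 12.38 in wild type and 11.25, 10.99 and 10.62 in pat1 (-1.38 ± 0.32, adjusted p = 0.0307), from a probe set that may bind related transcripts. PHM6, a phosphate-regulated gene of unclear function, gave 9.14, 9.56 and 8.72 against 7.11, 7.31 and 7.84 (-1.72 ± 0.32, adjusted p = 0.0122). PHO8, the vacuolar alkaline phosphatase, gave 11.28, 11.13 and 11.28 against 10.34, 10.21 and 10.32 (-0.94 ± 0.16, adjusted p = 0.00731). The 3 mutant arrays were tightly grouped for PHO8 and spread over more than 0.6 for PHO11.

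Both transporters of the low-phosphate response were measured. PHO89 gave 13.01, 12.83 and 13.00 in wild type and 12.15, 12.10 and 12.06 in pat1 (-0.84 ± 0.14, adjusted p = 0.00731), beside a difference of -1.93 without drug. PHO84, the high-affinity phosphate transporter, did not pass (-0.21, adjusted p = 0.342). SPL2, a regulator of low-affinity phosphate uptake (-0.67 ± 0.13), and VTC3, of the vacuolar polyphosphate synthase (-0.50 ± 0.12), were lower too, while VTC4 (-0.45), PHO81 (-0.43), VTC2 (-0.24) and VTC1 (-0.12) did not pass. GIT1, a permease for glycerophosphoinositol, gave 5.84, 6.28 and 5.97 against 7.0, 6.58 and 7.04 and was the 1 member that rose (0.84 ± 0.16, adjusted p = 0.0132). PHO89, SPL2, VTC3 and GIT1 were named beyond the rule for named genes, after their values were seen. Leaving out wild type arrays 1, 2 and 3 left 4 lower members each, leaving out pat1 arrays 1 and 2 left 6 each, and leaving out pat1 array 3 left 3. No member was called without both arrays that stood apart, where the median was -0.543. PHO11 was called only when pat1 array 1 was left out (highest adjusted p = 0.107).

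**Figure D4:**
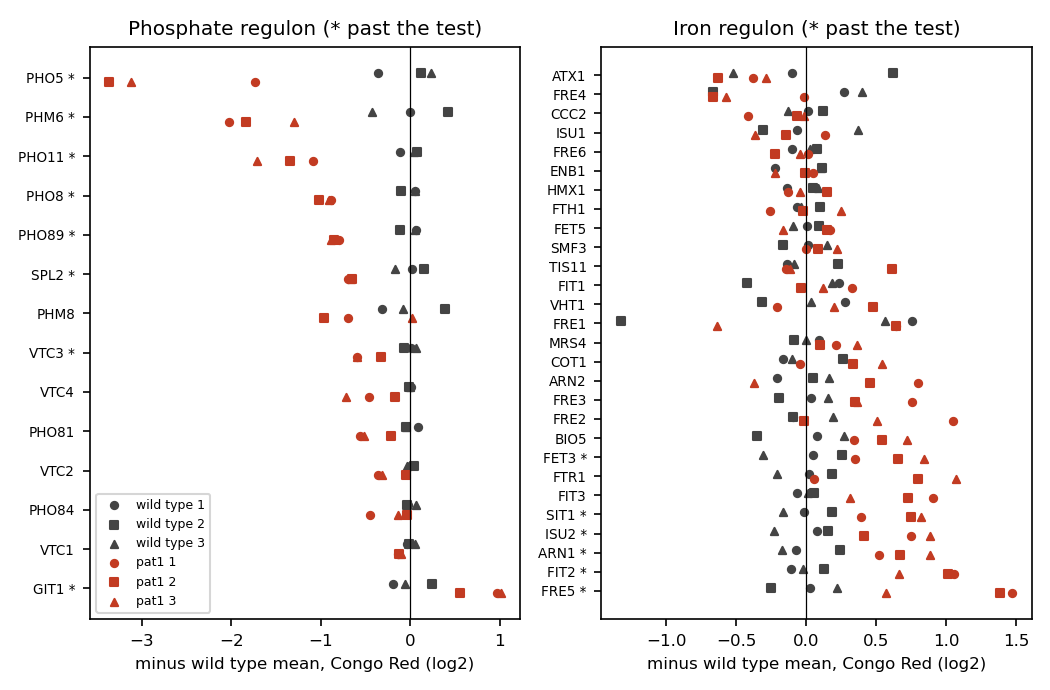
Signal of the measured phosphate genes (left) and iron genes (right) on each array with Congo Red, minus the mean of the 3 wild type arrays (horizontal axes, log2), with wild type in grey, pat1 in red and an asterisk at genes past the limma test. At left 7 genes with an asterisk lie below wild type and GIT1 lies above, and at right 6 genes with an asterisk lie above.

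Genes of iron uptake and use, controlled by Aft1 and Aft2, included 6 of 28 members that rose and none that fell, against 4.26% higher among all genes, with a median of 0.220. FRE5, a putative ferric reductase, gave 4.51, 4.23 and 4.70 in wild type and 5.95, 5.87 and 5.05 in pat1 (1.14 ± 0.28, adjusted p = 0.035). FIT2, a wall mannoprotein that retains siderophores, gave 9.87, 10.10 and 9.95 against 11.03, 10.98 and 10.63 (0.91 ± 0.22, adjusted p = 0.0354). The siderophore transporter gene ARN1 gave 9.37, 9.68 and 9.27 against 9.96, 10.11 and 10.32 (0.69 ± 0.17, adjusted p = 0.035). These groups did not overlap, with FRE5 at low signal throughout. ISU2, a scaffold of iron-sulfur cluster assembly (0.68 ± 0.15), SIT1, another siderophore transporter (0.65 ± 0.14), and FET3, the ferroxidase of high-affinity uptake (0.62 ± 0.17, adjusted p = 0.0495), were the others. SIT1 and FET3 were named after their values were seen. The calls were fragile, since 0, 4 and 0 members remained above the threshold without wild type arrays 1, 2 and 3, and 4, 1 and 1 without pat1 arrays 1, 2 and 3. None was called without both arrays that stood apart, with a median of 0.234. FIT2 lost its call whichever array was left out. Without drug 4 of the 28 rose. The zinc list had 1 riser of 11, ZPS1 (0.69 ± 0.18, adjusted p = 0.0466), which was called only when pat1 array 2 was left out.

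Hexose transporter genes changed in both directions. HXT1 and HXT3 fell and HXT9 rose among 17 measured, against 2.18% lower and 4.26% higher among all genes. The median was 0.015 (-0.037 with centred arrays). HXT3, another low-affinity transporter, gave 12.60, 12.52 and 12.86 in wild type and 12.03, 11.68 and 11.91 in pat1 (-0.78 ± 0.14, adjusted p = 0.0112). HXT9 gave 5.63, 5.73 and 5.51 against 6.41, 6.42 and 6.44 (0.80 ± 0.16, adjusted p = 0.0177). No transporter of the list was called without wild type array 3. None of 22 glycolysis genes passed.

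Of 42 genes of the respiratory chain 3 rose, with a median of 0.285, beside the 4.26% of all genes that rose. The 3 encode subunits of complex III. CYT1 gave 9.85, 10.33 and 9.56 in wild type and 10.67, 11.12 and 11.42 in pat1. QCR7 gave 12.01, 12.41 and 11.64 against 13.01, 12.98 and 12.93 (0.96 ± 0.20, adjusted p = 0.0217), and COR1 gave 10.96, 11.22 and 10.71 against 11.34, 11.64 and 11.82 (0.64 ± 0.17, adjusted p = 0.0434). Wild type array 2 was the highest wild type array for these 3 genes, and its median over the list was 0.266 above the wild type mean. On pat1 arrays 1, 2 and 3 the list median was 0.006, 0.284 and 0.687. None of the 42 was called without wild type array 1, wild type array 3, pat1 array 2 or pat1 array 3. In the citric acid cycle list CIT1, citrate synthase, fell (-0.62 ± 0.13, adjusted p = 0.0214) and MDH1, mitochondrial malate dehydrogenase, rose (0.65 ± 0.15, adjusted p = 0.0335). Without wild type array 3 neither passed (adjusted p = 0.0879 and 0.123), and with the sample as a random block CIT1 did not (0.0629).

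The counts of the stress lists stand beside 4.26% higher and 2.18% lower among all genes. Of 38 general stress genes GRE1 rose (1.15 ± 0.29, adjusted p = 0.0379) and DDR48 fell (-0.84 ± 0.21, adjusted p = 0.0385), and the median of 0.344 became 0.028 without pat1 array 3. DDR48 gave 12.40, 12.48 and 12.48 in wild type and 11.71, 11.40 and 11.72 in pat1, but neither gene passed without wild type array 3 (adjusted p = 0.12 for DDR48 and 0.126 for GRE1), nor did DDR48 with the sample as a random block (0.069). DDR48 lost its call whichever array was left out, and GRE1 was called in only 1 of the 6 cases. Of 20 trehalose and glycogen genes GSY1, a glycogen synthase, rose (0.99 ± 0.26, adjusted p = 0.0445, and 0.16 without wild type array 3). None of 28 heat shock and chaperone genes passed, HSP26 having the largest value (1.45, adjusted p = 0.257).

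Some ribosome biogenesis genes were higher in pat1 than in wild type under the dye. Of 95 measured members 9 rose, none fell and 86 did not pass (median 0.194), while 4.26% of all genes rose. Without drug none of the 95 rose, 2 fell, and the median was -0.056. RRP15, needed for large subunit assembly, gave 10.35, 10.36 and 9.99 in wild type and 11.06, 11.05 and 10.96 in pat1 (0.79 ± 0.11, adjusted p = 0.0037). UTP23, a small subunit processing factor, gave 10.83, 10.40 and 10.54 against 11.49, 11.51 and 11.25 (0.83 ± 0.16, adjusted p = 0.0148). NOP7, of large subunit assembly, gave 10.83, 10.54 and 10.64 against 11.41, 11.37 and 11.27 (0.68 ± 0.13, adjusted p = 0.0122). For RRP15, UTP23 and NOP7 the wild type means were 10.65, 11.07 and 11.13 without drug and 10.23, 10.59 and 10.67 with it. The pat1 means were 11.04, 11.52 and 11.30 without drug and 11.02, 11.42 and 11.35 with it. Without drug these 3 genes were thus also higher in pat1, by 0.40, 0.45 and 0.17, and were not called. In the main fit no member passed the test of the difference between contrasts (adjusted p = 0.9996 for each of these 3). A rise particular to the dye is therefore not shown. The pat1 arrays with Congo Red were tightly grouped for all 3, and RRP15 was called under every setting. UTP23 was not called without wild type array 2 or 3 (adjusted p = 0.0587 and 0.0592), nor NOP7 without wild type array 3 (0.054). SPB1, an rRNA methyltransferase (0.80 ± 0.21, adjusted p = 0.0466), lost its call whichever array was left out. KRR1 (0.61), ALB1 (0.58), TIF6 (0.55), NOP58 (0.51) and NOP4 (0.48) were the others, of which all but TIF6 were named after their values were seen.

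The count of risers in this list was 6, 2 and 2 without wild type arrays 1, 2 and 3 and 6, 3 and 3 without pat1 arrays 1, 2 and 3, with medians from 0.111 to 0.317. Without both arrays that stood apart 1 was called and the median was 0.133. The wild type arrays differed among themselves here, with list medians of 0.21, -0.221 and -0.008 around their own mean, and the pat1 arrays lay at 0.081, 0.368 and 0.168. Of 21 RNA polymerase I and III genes RPC34 (0.52 ± 0.10, adjusted p = 0.0118) and RPA12 (0.46 ± 0.11, adjusted p = 0.0322) rose, while 4.26% of all genes rose. With single arrays left out RPA12 was called only without pat1 array 1, and it was not called with the sample as a random block (adjusted p = 0.0517). Among 128 cytosolic ribosomal protein genes RPL15B fell (-0.47 ± 0.10, adjusted p = 0.0196) and no other passed, with a median of -0.061. RPL15B was called only when pat1 array 2 was left out (highest adjusted p = 0.0831).

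Genes of meiosis and sporulation are not used by haploid cells in vegetative growth. Of 51 measured, 4 rose and 2 fell (median 0.139), beside 4.26% higher and 2.18% lower among all genes. Most of the list was dim, and only 2 of the 51 remained when the dimmest 25% of genes were left out. Besides SPO22, CDA1 and SPO11, the meiotic kinase gene IME2 gave 7.18, 7.06 and 7.26 in wild type and 8.12, 7.97 and 8.15 in pat1 (0.91 ± 0.09, adjusted p = 0.00066), called under every setting that measured it. Genes of the G1 and S phases had 3 of 39 higher and 2 lower, beside the same shares of all genes. RAD27, the flap endonuclease of DNA replication, gave 9.61, 9.58 and 9.61 against 10.67, 10.50 and 10.61 (1.00 ± 0.11, adjusted p = 0.000902), PRI2, a primase subunit, rose by 0.73 ± 0.14, and the DNA ligase gene CDC9 by 0.55 ± 0.09. RAD27 differed by about the same amount on each mutant array and was called under every setting. The cyclin gene PCL2 fell (-0.56 ± 0.14, adjusted p = 0.0408), and with single arrays left out was called only without pat1 array 2, and not with the sample as a random block (adjusted p = 0.0656). PRI2 was not called without wild type array 1, wild type array 3 or pat1 array 3 (highest adjusted p = 0.0598). In the DNA damage list SHU2 gave 7.92, 7.79 and 7.24 against 8.95, 8.77 and 9.10, and MAG1, a DNA glycosylase, fell (-0.56 ± 0.11, adjusted p = 0.0125, and 0.0562 without wild type array 1).

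The median of chromosome XI was raised on both arrays of 1 mutant sample. After taking off the array median, the 293 genes of chromosome XI had a median of 0.216 on pat1 array 1 with Congo Red and 0.183 on the array of the same sample without drug, each relative to the wild type mean of that condition. On the other 10 arrays it lay between -0.011 and 0.036, and the other chromosomes lay between -0.055 and 0.098 over all 12 arrays. Both arms were shifted, the left arm (199 genes) by 0.204 and 0.190 and the right arm (94 genes) by 0.252 and 0.168. Without pat1 array 1 with Congo Red the chromosome had 9 higher and 6 lower genes in place of 15 and 6, and its median fell from 0.139 to 0.08. PIR3, KDX1, SRL3 and GFA1 lie on chromosome XI, and pat1 array 1 was the highest mutant array for all of them. It was also the highest mutant array for the called targets on other chromosomes, YPS3 (XII), PTP2 (XV), YPK2 (XIII) and CHS3 (II). Of the targets on chromosome XI that did not pass, PIR1 gave 12.37, 12.40 and 12.58 on pat1 arrays 1, 2 and 3. CWP1 gave 12.76, 12.72 and 12.85, so pat1 array 1 was not the highest for either. The part of this shift in the results was not tested beyond these values.

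Shorter genes tended to be higher and longer genes lower in pat1. Genes were put into 4 bins of equal size by coding length. Among the 1363 shortest (51 to 756 bases) 82 rose and 10 fell (6.02% and 0.734%) with a median of 0.121, and among the 1362 longest (1899 to 14733 bases) 24 rose and 52 fell (1.76% and 3.82%) with a median of -0.084. The bins between had 69 higher and 25 lower and 57 higher and 32 lower. Without drug the shortest genes had 80 higher and 6 lower (median 0.134) and the longest 13 higher and 116 lower (median -0.202). On pat1 arrays 1, 2 and 3 with Congo Red the median of the shortest genes was 0.088, 0.047 and 0.252 above the wild type mean and that of the longest -0.098, -0.089 and -0.043. The wild type arrays varied in the same measure, from -0.057 to 0.065 in the shortest genes and from -0.084 to 0.053 in the longest. The strains thus overlapped in both bins, with array medians not taken off. Those medians were 0.027, -0.043 and 0.013 on wild type arrays 1, 2 and 3 and 0.005, 0.011 and 0.132 on the pat1 arrays. Relative to its own median, each pat1 array was lower in the longest genes than every wild type array. In the shortest genes the strains overlapped on that scale too. Without both arrays that stood apart the counts were 9 higher and 1 lower in the shortest genes and 1 higher and 9 lower in the longest, with medians of 0.102 and -0.14. RNA integrity was not tested.

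**Figure D5:**
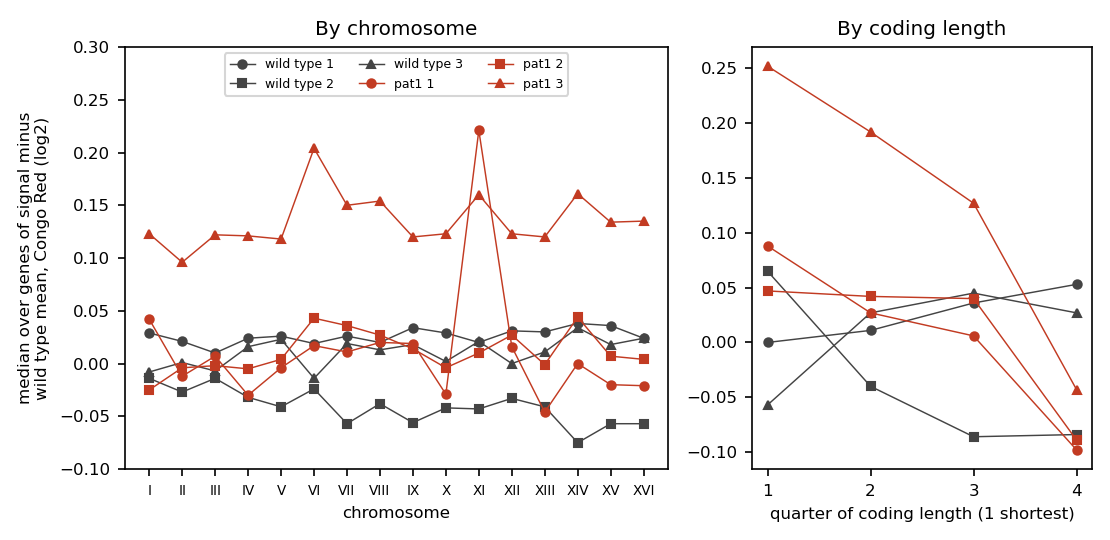
Median over genes of the signal minus the wild type mean (vertical axes, log2) on each of the 6 arrays with Congo Red, by chromosome (left, array medians not taken off) and by bin of coding length from shortest to longest (right), with wild type in grey and pat1 in red. Chromosome XI stands out on pat1 array 1, pat1 array 3 is raised on every chromosome, and the pat1 lines fall toward the longest genes.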

How the data were processed

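RNA from 12 yeast cultures was hybridised to 12 Affymetrix arrays, 3 in each of 4 groups, of which the 6 with Congo Red are compared here. The deposited table holds log2 values for 5739 probe sets, made by the authors with RMA per the submitters' processing notes, whose version the sources used here do not give. RMA as usually run equalises the distributions of the arrays, which can hide a shift common to all genes. The values were used as deposited.

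The 23 control probe sets and those without a symbol were left out. The 5498 probe sets with 1 symbol were looked up by Entrez number among RefSeq genes (assembly R64), and 12 symbols were updated. For 47 genes with several probe sets the brightest was used, which left 5449 genes, of which 114 have a probe set that may also detect related transcripts. Coding length came from the same table and is known for all 5449 genes (97.0% are multiples of 3). No source used here names the authors' genome build, and coordinates are therefore left out.

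Means of the 4 groups were estimated from the 12 arrays together with limma 3.58.1 (lmFit and eBayes, 8 residual degrees of freedom) in R 4.3.3, with Benjamini-Hochberg adjustment over all genes and a threshold of 0.05. Standard errors are those of this fit. Tables and figures used Python 3.11.15, pandas 2.3.3 and matplotlib 3.10.9. The fit was tested on simulated data with 200 of 5449 genes changed in this comparison, where it recovered 23.9% of changes of 0.5, 88.1% of changes of 1 and 100% of changes of 2 on the log2 scale, with 2 false calls. The simulated noise was independent between genes and between arrays, whereas arrays of 1 biological sample deviated together in the data. These rates are therefore not estimates for the data.

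The series text says that each biological sample gave 1 array with and 1 without drug. Deviations from group means correlated at 0.616 to 0.801 between such arrays and at -0.779 to 0.231 between other numbers, so the sample was used as a block in alternative fits, of the difference between contrasts and of the comparison itself. Across strains arrays of the same number correlated at -0.547 to 0.264 and those of other numbers at -0.656 to 0.689, so the number pairs no cultures of different strains. Wild type 1 and pat1 2 correlated at 0.575 with drug and 0.448 without. Wild type 2 and pat1 3 correlated at 0.425 with drug and 0.689 without. No fit paired these arrays, and the part of this in the results was not tested.

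Named genes were PAT1 and the 2 annotated genes on either side, the 15 largest changes in each direction among called genes whose groups did not overlap, all decapping genes, all called wall targets, up to 4 called members of each other list (or its largest value where none was called) and genes past the test of the difference. The 48 gene lists came from general knowledge, some lists share genes, and members, lists and comparisons were chosen with earlier results of these data known. Lists are described by counts and medians and were not tested. Alternatives were other normalizations, a filter on dim genes, other variance settings, the 6 arrays alone, array weights, other use of probe sets, blocks and each array left out in turn. Leaving out both wild type array 2 and pat1 array 3 was chosen after seeing the data. Promoter motifs were not analysed here.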

Additional observations from a re-analysis of the deposited data

How the results depend on the processing

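The 3 arrays per group limit what can be called, and arrays give no read depth. The number of genes past the test in pat1 against wild type with Congo Red was 210 (140 higher, 70 lower) with the 6 arrays alone, 820 (445 and 375) with array weights, 196 (106 higher) without both arrays with URA3 signal (wild type array 2 with drug and pat1 array 1 without), 67 at an adjusted p under 0.01, 47 with at least 2-fold change, and 35 (21 and 14) without wild type array 2 and pat1 array 3. With cyclic loess normalization 203 were lower. Leaving out each array gave 92 to 259 genes, 66 to 171 higher and 26 to 88 lower. With the replicate number as a replicate block across strains, where the numbers pair no cultures, 368 genes were called, 307 of them among the 351. For the difference between contrasts the count of 0 became 3 in the fit with a fixed replicate block per biological sample (659 genes at an unadjusted p under 0.05), 11 with it as a random block, 1 with array weights, and 0 to 3 with each array left out. The causes of these changes in count were not tested. Fits with arrays left out also had fewer samples. Of the 96 named genes that were called, 33 were called with each of the 6 arrays left out and 12 with none.

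Among the 128 named genes, sign changes were seen in 9, none of which passed the test. Genes not named were not checked in this way, apart from the 351 called ones. Without both URA3 arrays DCS1 was at 0.052, DHH1 at -0.035, LSM6 at 0.052, SCD6 at 0.015 and URA3 at 0.066. Without wild type array 2 and pat1 array 3 DCP1 was at -0.024, DHH1 at -0.189, LSM6 at 0.024 and URA3 at 0.165. LSM2 was at -0.034, -0.013, -0.026 and -0.007 with centred arrays, quantile, loess and array weights, and LSM4 at 0.010 with array weights. With each array left out the ranges were -0.086 to 0.190 for DCP1, -0.248 to 0.052 for DCS1, -0.048 to 0.253 for DHH1, -0.368 to 0.042 for EDC2, -0.114 to 0.111 for LSM2, -0.146 to 0.052 for LSM6, -0.053 to 0.065 for SCD6 and -2.261 to 0.066 for URA3.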

Other observations

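A few more stable differences were named after their values were seen. Each gene named here is among the 32 called under every setting that measured them, and FLC1 was named above only for the difference between contrasts. TBS1 was lower in pat1 with a log2 difference of -1.23 ± 0.11 (SE of the limma fit, adjusted p = 0.000287) with Congo Red and -1.11 without drug. HKR1, a mucin-like membrane protein, had -0.88 ± 0.15 with and -0.62 without drug, and SBE2, of bud wall growth, had -0.82 ± 0.10 and -0.79. FLC1, a membrane protein of the flavin carrier family, had -0.80 ± 0.13 with drug (adjusted p = 0.00731) and 0.03 without it. Higher in pat1 were RSC8, a subunit of the RSC chromatin remodelling complex (0.95 ± 0.13 with drug, 0.62 without), ALP1, a basic amino acid permease (1.10 ± 0.13 and 0.69), CIN2, a tubulin folding factor (0.90 ± 0.13 and 0.81), and BUD22, of small ribosomal subunit formation (0.86 ± 0.14 and 0.29). BUD22 was not among the 95 ribosome biogenesis genes counted above.

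Of the 48 gene lists, 13 had no member past the test, 20 had 1 or 2 and 15 had more. For the lists not described above, the shares to set beside the counts are 4.26% higher and 2.18% lower among all genes. Oxidative stress genes had 3 of 32 higher, led by the glutathione peroxidase gene GPX1 (1.16 ± 0.27, adjusted p = 0.0307). Nitrogen catabolite genes had 3 of 33 higher and 1 lower, with DAL82 at 0.60 ± 0.11 and the allantoin permease gene DAL4 at -0.86 ± 0.22. The maltose permease gene MAL11 rose by 0.94 ± 0.13 (adjusted p = 0.0037) among 26 glucose-repressed genes, and CAT8 fell (-0.63 ± 0.15). Of 35 proteasome genes ECM29, a proteasome-associated factor, fell (-0.81 ± 0.14, adjusted p = 0.0103). Of 7 genes specific to mating type a, BAR1, the protease that degrades alpha factor, fell (-0.53 ± 0.11, adjusted p = 0.016), and none of the 4 alpha-specific genes passed. Of 22 osmotic stress genes HAL1 fell (-0.56 ± 0.12) and SSK1 fell (-0.40 ± 0.11). PRB1, a vacuolar protease, fell (-0.54 ± 0.12) among 27 vacuolar protease and autophagy genes, and ORT1, the mitochondrial ornithine transporter, rose (0.71 ± 0.12) among 48 amino acid genes. The calls of MAL11, ECM29 and ORT1 held with each array left out. Those of DAL4, BAR1, HAL1, SSK1 and PRB1 were lost without wild type array 3 (adjusted p = 0.0715 to 0.181), and those of GPX1, DAL82 and CAT8 without pat1 array 3 (adjusted p = 0.0571 to 0.12). DAL4, SSK1 and CAT8 lost their calls whichever array was left out. PRB1 and GPX1 each kept theirs in only 1 of the 6 cases. With the biological sample as a random block DAL4, HAL1, SSK1, PRB1 and CAT8 did not pass (adjusted p = 0.053 to 0.0803). No gene for ergosterol synthesis (27), folding in the endoplasmic reticulum (25), sulfur and methionine metabolism (32) or histones (9) passed.

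Called genes occurred at every level of signal. Among the 1363 dimmest genes by mean signal 63 rose and 25 fell, and among the 1362 brightest 52 rose and 27 fell. Of the 499 genes known only by a systematic name 5.41% were higher and 3.41% lower, against 4.14% and 2.06% of the 4950 genes with a standard name.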
